A study of Drosophila melanogaster with 88 samples.

Results

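The lysozyme genes LysB, LysD, LysE, LysP, LysS and LysX of Drosophila melanogaster were followed across guts and heads of flies carrying the P58S form of VAP. They were taken by symbol from the table of male heads, where they are 6 of 17830 genes, and by gene identifier from the tables of female guts and female heads, where they are 6 of 17421 genes. Lysozymes cut peptidoglycan, the sugar and peptide mesh of bacterial cell walls. In flies LysB, LysD and LysE are known for strong expression in the midgut, where they are thought to help digest the bacteria that flies eat rather than to act as systemic immune effectors. LysP is known from the adult salivary gland, LysS from the larval gastric caeca and LysX from the midgut around metamorphosis.

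VAP is the fly counterpart of human VAPB, a membrane protein that tethers the endoplasmic reticulum to other organelles, and a change at the matching residue of VAPB causes a familial form of amyotrophic lateral sclerosis. The first set of samples held P58S and wild-type (WT) flies, as guts and heads of females at days 20 and 5 and as heads of males at days 5, 15 and 20. The other set held heads of P58S males that all carried Repo-Gal4, a driver active in glia. Its arms were kayak knockdown (KayKD), kayak wild-type overexpression (KayWT), a further overexpression labelled KaySCR, and the driver alone (Repo driver), each at days 5 and 15. Kayak (kay) is the fly Fos transcription factor. The labels name no promoter or driver for the VAP alleles themselves. Each of the 22 groups had 4 libraries, 88 in all. Whether the libraries within a group were made from separate flies or vials is not stated in the labels, so every p-value below measures the spread between these libraries, which may be technical.

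RNA was read by 3′ mRNA sequencing, in which each transcript gives reads near its 3′ end, and levels are given as CPM, the read count of a gene scaled to a common library total, without division by length unless said. Depth was 0.937 to 9.461 M reads in female guts, 0.201 to 6.818 in female heads, 2.478 to 16.478 in the WT and P58S male heads and 1.206 to 15.023 in the Repo driver set. A count of 0 therefore allows up to 3.2 CPM in the shallowest gut library and up to 15.0 CPM in the shallowest female head library, counting error only. The guts carried 131064 to 198023 CPM on a list of 39 digestive enzymes, against 447.2 to 7120 CPM in female heads, and the glial marker repo stayed under 0.45 CPM in guts. Female heads also held 54620 to 119960 CPM on 11 ovary and eggshell genes, among them yolk proteins, where male heads held at most 36.2 CPM. The gut, the female head and the male head tables were normalised separately, so levels set side by side across them are descriptions.

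All 6 genes lie in 33.5 kb of chromosome arm 3L, at positions 1194739 to 1228238 of the dm6 assembly in the BDGP6.54 annotation, and each is a single exon. LysX (FBgn0004431) spans 1194739 to 1195302 on the minus strand and stands apart from the rest by 12.1 kb. LysB (FBgn0004425) spans 1207371 to 1207981 on the plus strand, LysD (FBgn0004427) 1210717 to 1211196 on the minus strand and LysE (FBgn0004428) 1212827 to 1213406 on the plus strand. LysP (FBgn0004429) follows at 1218082 to 1218696 on the minus strand, and LysS (FBgn0004430) at 1227747 to 1228238 on the plus strand. An annotated transposable element fills most of the 9.0 kb between LysP and LysS. LysD, LysE, LysP and LysS lie inside introns of mwh, a wing hair polarity gene, in all 3 of its transcripts, and LysB does so in 2 of the 3. The pseudogene LysC (FBgn0004426) at 1210485 to 1210726 overlaps the end of LysD by 10 bases on the opposite strand. LysB, LysD and LysE each encode 420 bases and are known as near-identical copies, and how reads were counted is not given in the sources used here, so the split of reads between these 3 genes and LysC is uncertain.

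In guts the family stood at 0.541% to 1.93% of all reads, with a median of 0.942% over 16 libraries. LysB, LysD and LysE made up 97.8% to 99.9% of that. Among these 3, LysD took 54.6% to 61.8%, LysE 26.4% to 32.7% and LysB 11.4% to 13.7% in every library, whatever the genotype or age. Per kilobase of annotated length the order was the same. In P58S guts at day 5, LysD averaged 20144 CPM per kb, LysE 7628 and LysB 3118, while LysX averaged 78.3, LysP 42.3 and LysS 0.924. Reads taken near the 3′ end do not scale with length, so the values per kb are no better measure of abundance than CPM. The 3 abundant genes moved together over the 16 gut libraries, with Pearson correlations of log2(CPM + 1) of 0.99 for LysB with LysD, 0.98 for LysB with LysE and 0.97 for LysD with LysE. These are descriptions across libraries that share groups and, for near-identical copies, possibly reads. LysX and LysP followed neither the 3 abundant genes nor each other, with correlations between -0.41 and 0.22.

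**Figure D1:**
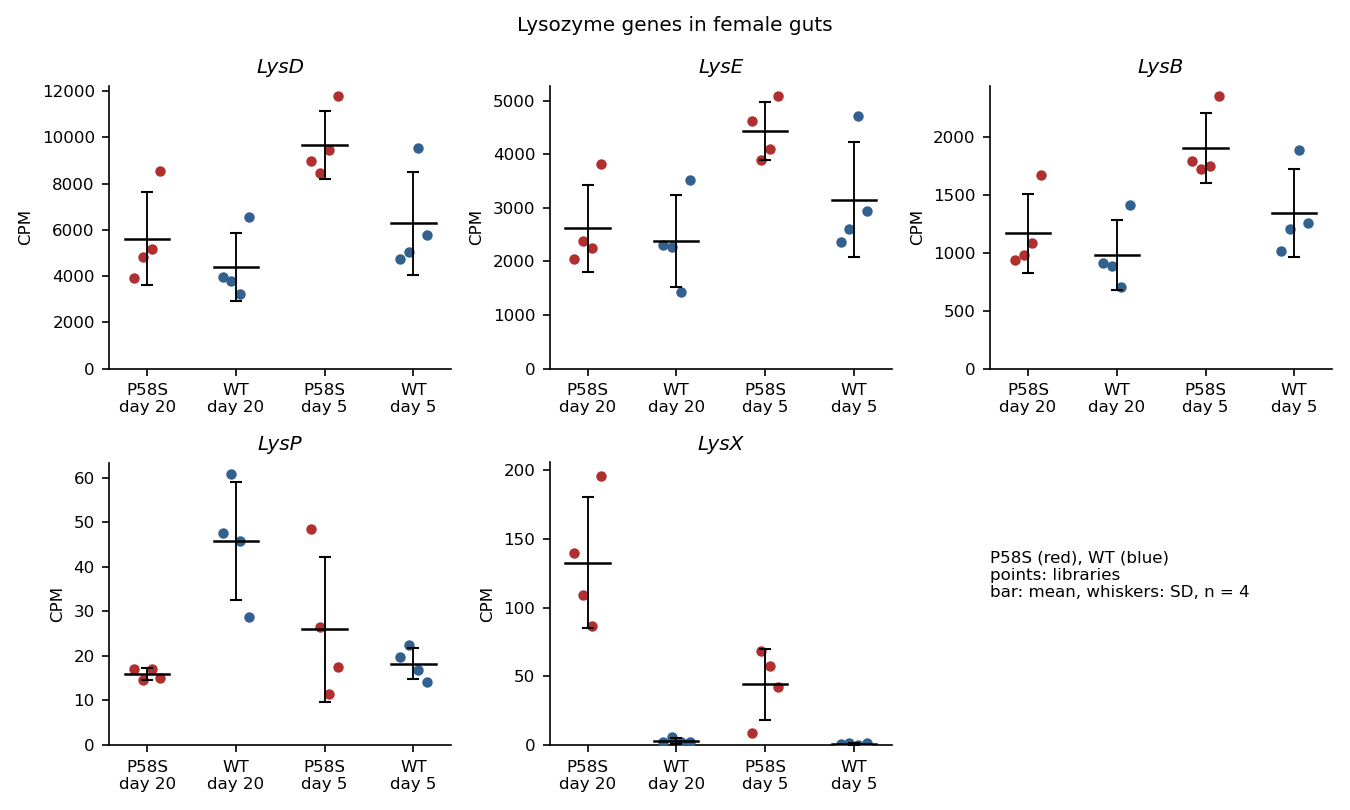
CPM of LysD, LysE, LysB, LysP and LysX in female guts, 1 point per library, with the mean and SD of each group of 4 for P58S day 20, WT day 20, P58S day 5 and WT day 5. LysX lies between 8.54 and 196 CPM in P58S guts and at or under 6.15 CPM in WT guts, while LysD, LysE and LysB overlap between genotypes at each age.

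The question put to the guts was how P58S differs from WT at each age, and the clearest answer in the family came from LysX. At day 20, LysX stood at 140, 109, 86.5 and 196 CPM in P58S guts, against 2.04, 6.15, 1.86 and 2.22 CPM in WT guts. At day 5 it stood at 8.54, 68.4, 57.5 and 42.2 CPM in P58S guts, against 0.519, 1.57, 0 and 1.58 CPM in WT guts. Every P58S library was above every WT library, and the lowest P58S value, that of day 5 replicate 1, still rested on 39 reads, where no WT library held more than 21. How many of all genes separate their groups in this way was not counted in any comparison. A lack of overlap is therefore a description, here and below. The means were 132.9 ± 47.4 CPM in P58S and 3.07 ± 2.06 CPM in WT guts at day 20, and 44.2 ± 26.1 CPM in P58S and 0.918 ± 0.79 CPM in WT guts at day 5 (SD, n = 4 each).

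LysX rose in P58S guts at both ages in limma's test on log2(CPM + 1) across 9036 genes, with Benjamini-Hochberg adjustment and a threshold of 0.05. The log2 fold change was 5.09 at day 20 (SE 0.562, 95% interval 3.92 to 6.25, adjusted p = 2.55e-05) and 4.34 at day 5 (SE 0.562, 3.17 to 5.50, adjusted p = 0.000406). On this scale a fold change of a gene near 0 in one group is understated. LysX was the gene with the second smallest p at each age. It was 1 of 5 lysozyme genes tested at each age. Of all genes, 0.133% were called higher in P58S guts at day 20 and 0.0775% at day 5. Under 15 alternative settings at each age, which included leaving out each library, LysX stayed called each time, with adjusted p between 1.12e-06 and 0.000908 at day 20 and between 1.03e-05 and 0.0065 at day 5. The log2 fold change ran from 4.06 to 5.71 at day 20 and from 2.82 to 5.52 at day 5 over these settings, lowest with a pseudocount of 5 and highest with edgeR on recovered reads.

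The lead of P58S guts in LysX did not differ detectably between the ages. The difference between the day 20 and day 5 effects was 0.75 on the log2 scale (95% interval -0.89 to 2.40, adjusted p = 0.999 by limma), and 0.0% of all genes passed that test. Within P58S guts LysX was 1.83 higher on the log2 scale at day 20 than at day 5 (0.67 to 2.99, adjusted p = 0.136), and within WT guts 1.08 higher (-0.09 to 2.24, adjusted p = 0.532). In both genotypes every day 20 library was above every day 5 library, yet neither difference passed the threshold. The order of the groups was thus P58S day 20, P58S day 5, WT day 20 and WT day 5, with the ages within a genotype not separated by the test.

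None of the 10 measured neighbours of the cluster within 50 kb was called in any gut comparison, mwh included. Their log2 fold changes ran from -1.21 to 0.59 at day 20 and from -0.10 to 1.18 at day 5 for P58S over WT. LysC, which overlaps LysD, differed by 0.53 at day 20 and 0.65 at day 5, without a call. The marker lists other than that of enterocytes held no called gene at day 20. Their median log2 fold changes of P58S over WT ran from -0.44 for the Malpighian tubule to 0.74 for gut progenitors, with 0.56 for fat body, 0.51 for neurons and 0.47 for photoreceptors, against -0.06 for all genes, and the 1 glial marker was not tested. The summed level of the fat body list was 237.3 to 414.1 CPM in P58S guts and 215.3 to 383.8 CPM in WT guts at that age, that of the neuron list 36.5 to 80.5 CPM in P58S and 29.6 to 57.2 CPM in WT, and that of the photoreceptor list 47.9 to 418.4 CPM in P58S and 31.8 to 207.9 CPM in WT. The groups overlapped in each, and the part of these lists in the LysX difference was not tested. At day 5 no gene of the 12 marker lists was called between P58S and WT guts, and at day 20 only the amylases Amy-p and Amy-d, both made by enterocytes. In bulk samples such as these, more cells of a type and more RNA per cell cannot be told apart.

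LysD, the most abundant member, reached 3930, 4827, 5153 and 8522 CPM in P58S guts at day 20, against 3969, 3800, 3231 and 6571 CPM in WT guts. At day 5 it reached 8992, 8468, 9441 and 11776 CPM in P58S guts, against 4745, 5031, 9554 and 5762 CPM in WT guts. The day 5 groups overlap through a single WT library, replicate 3, which stood as high as P58S guts. The log2 fold change of P58S over WT was 0.34 at day 20 (95% interval -0.16 to 0.85, adjusted p = 0.746) and 0.67 at day 5 (0.17 to 1.18, unadjusted p = 0.0114, adjusted p = 1).

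LysE was the next most abundant gene. At day 20 it had 2043, 2378, 2242 and 3816 CPM in P58S guts, against 2312, 2274, 1430 and 3513 CPM in WT guts. At day 5 it had 4622, 3884, 4100 and 5090 CPM in P58S guts, against 2362, 2602, 4717 and 2937 CPM in WT guts. WT replicate 3 was again the one day 5 library of WT inside the P58S range. The log2 fold changes were 0.16 at day 20 (adjusted p = 0.881) and 0.53 at day 5 (unadjusted p = 0.0374, adjusted p = 1).

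LysB had 937, 977, 1083 and 1668 CPM in P58S guts at day 20, against 913, 886, 704 and 1410 CPM in WT guts. At day 5 it had 1790, 1726, 1749 and 2356 CPM in P58S guts, against 1016, 1209, 1888 and 1253 CPM in WT guts. Its log2 fold changes were 0.26 at day 20 (adjusted p = 0.785) and 0.53 at day 5 (unadjusted p = 0.0234, adjusted p = 1). At day 5, then, 4 of the 5 tested lysozyme genes had an unadjusted p under 0.05 and all 4 were higher in P58S guts, but LysX alone passed the adjustment over all genes. The largest of these p by limma was 0.0374, for LysE, which ranked 215th of 9036 genes. LysB, LysD and LysE may share reads and are not separate observations. The edgeR test on the read counts recovered from the same table called the same number, 1 of 5, at either age.

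LysP was lower in P58S guts by its values at day 20. It stood at 17.0, 14.6, 17.1 and 14.9 CPM in P58S guts, against 47.7, 60.9, 45.9 and 28.6 CPM in WT guts, with no overlap. The log2 fold change of -1.42 (95% interval -2.21 to -0.64) did not pass the threshold (adjusted p = 0.158, and 0.114 to 0.352 over 15 alternatives). At day 5 the groups overlapped, with 48.6, 26.4, 11.4 and 17.5 CPM in P58S guts and 19.7, 22.4, 16.8 and 14.2 CPM in WT guts (log2 fold change 0.31, adjusted p = 1). The change of the P58S effect between ages, -1.74 (-2.85 to -0.62), ranked 14th of all genes by p, with an unadjusted p of 0.00372 and an adjusted p of 0.999.

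LysS was at the limit of detection, with 29 reads in all 16 gut libraries and at most 1.13 CPM, and was not tested. A count of 0, found in 7 libraries, allows between 0.448 and 3.2 CPM depending on depth, so a difference in LysS was not detectable at this depth.

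**Figure D2:**
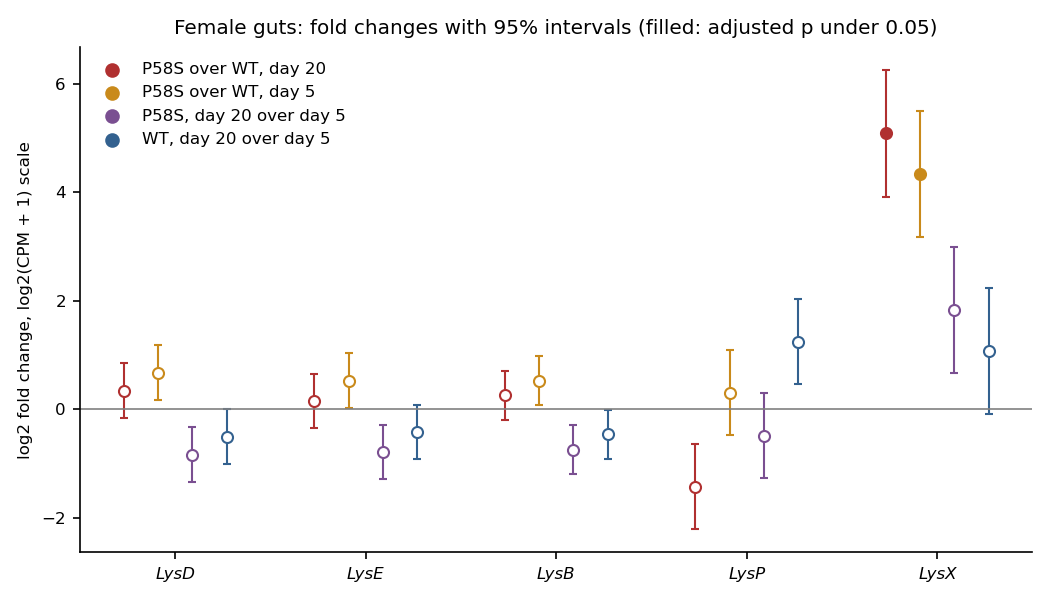
Log2 fold changes of LysX, LysD, LysE, LysB and LysP in female guts with their 95% intervals, for P58S over WT at each age and for day 20 over day 5 in each genotype, filled where the adjusted p is under 0.05. LysX in P58S over WT gives the only filled points, at 5.09 for day 20 and 4.34 for day 5.

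The 3 abundant lysozyme genes had lower mean levels at day 20 than at day 5 in guts of both genotypes, without a call. In P58S guts the log2 fold change of day 20 over day 5 was -0.74 for LysB (95% interval -1.19 to -0.28, adjusted p = 0.126), -0.84 for LysD (-1.34 to -0.33, adjusted p = 0.116) and -0.79 for LysE (-1.29 to -0.29, adjusted p = 0.135) by limma. For LysB and LysE, which may share reads and are not separate observations, every day 20 library lay under every day 5 library. For LysD replicate 4 of day 20 lay just inside the day 5 range. Without that library LysD was called (log2 fold change -1.06, adjusted p = 0.0485), and the adjusted p of LysD otherwise reached 0.351 over the 15 alternatives. In WT guts the values were -0.46 for LysB, -0.51 for LysD and -0.42 for LysE, with adjusted p of 0.473, 0.481 and 0.571. The effect of age was not shown to differ between genotypes for any of the 3, with differences of -0.27, -0.33 and -0.37 and an adjusted p of 0.999 each.

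For LysP in P58S guts the log2 fold change with age was -0.49 (adjusted p = 0.662). In WT guts its day 20 values, given above, all lay over its day 5 values, but the log2 fold change of 1.25 was not called (adjusted p = 0.206). With limma, 0 of 5 lysozyme genes were called with age in either genotype, where 4 in P58S and 3 in WT guts had an unadjusted p under 0.05 and edgeR also called 0. The largest of these p by limma was 0.0483 in WT guts, for LysD, which ranked 907th of 9036 genes. In P58S guts it was 0.00352, for LysX, which ranked 234th. Near-identical copies that may share reads are among these genes in both genotypes. Of all genes, 0.299% were called with age in P58S guts and 0.21% in WT guts. Ovary and eggshell genes summed to 2316 to 5282 CPM in P58S guts at day 20 and 3395 to 11559 CPM at day 5, and to 3553 to 5448 CPM in WT guts at day 20 and 7166 to 11630 CPM at day 5. Their part in the age differences was not tested.

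Genes with related roles were read from the same gut fits. Of 12 other genes of the lysozyme class, LysC among them, 7 were tested in guts and 0 were called by limma in any gut comparison. LysC had a log2 fold change of -0.77 with age in P58S guts (adjusted p = 0.139). CG16799, a lysozyme of the same class outside the cluster, averaged 55.4 CPM in P58S and 56.9 CPM in WT guts at day 20, and 33.3 CPM in P58S and 36.0 CPM in WT guts at day 5. CG16756, CG6421, CG6426, CG6429 and CG14823 completed the tested set. The median log2 fold change of the 7 was -0.29 at day 20 and -0.10 at day 5 for P58S over WT, where the median of all genes was -0.06 and -0.02. The 5 tested lysozyme genes of the cluster had medians of 0.26 and 0.53.

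Among 12 tested peptidoglycan recognition proteins, which bind or cut the same cell-wall polymer, none was called between genotypes. PGRP-SC2, a secreted amidase that degrades peptidoglycan, rose with age in both genotypes, by 0.85 on the log2 scale in P58S guts (adjusted p = 0.00643) and 0.79 in WT guts (adjusted p = 0.0099). None of the 8 genes of the Imd pathway, which signals peptidoglycan to the antimicrobial peptide genes, was called in any gut comparison. Of 16 tested antimicrobial peptide genes 1 was called, Drsl2, a drosomycin-like peptide. It was higher in P58S guts at day 20 (log2 fold change 3.50, adjusted p = 0.000956) and higher at day 20 than at day 5 in P58S guts (2.40, adjusted p = 0.0354).

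Of 37 tested digestive enzymes, 2 were higher in P58S guts at day 20 and 0 at day 5. Amy-p, an alpha-amylase, differed by 1.44 (adjusted p = 0.00963) and its duplicate Amy-d by 1.07 (adjusted p = 0.00945), and the amylase copies may share reads. With age the serine proteases Jon65Ai (-1.42, adjusted p = 0.00258) and Jon65Aii (-0.91, adjusted p = 0.0227) fell in P58S guts. In WT guts Jon25Bi (-1.94, adjusted p = 0.00645), Jon99Ciii (-1.06, adjusted p = 0.00839) and the lipase mag (-0.99, adjusted p = 0.0323) fell. These 5 were read from the list of digestive enzymes, so their shared role came with the choice.

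The genes whose gut pattern was most like the summed lysozyme level over the 16 libraries, among 5009 genes with a mean of at least 10 CPM, were LysC (Pearson r of log2 values 0.865), the serine protease Jon65Aiv (0.842), Jon25Bi (0.784), the aspartic protease Bace (0.767) and Jon25Bii (0.766). LysD and LysB were each most like LysC, LysE was most like Jon65Aiv, and LysP was most like CG34212 (0.774). LysX was most like Cyp12a4 (0.916), a mitochondrial cytochrome P450. Cyp12a4 had 266, 307, 196 and 269 CPM in P58S guts at day 20 and 237, 255, 271 and 274 CPM at day 5, against 140, 138, 129 and 136 CPM in WT guts at day 20 and 119, 114, 109 and 99.3 CPM at day 5. Its genotypes did not overlap at either age, and its 16 libraries share depth and groups with those of LysX. Cyp12a4 was picked for following LysX over these same libraries, and LysX splits by genotype. A genotype split in Cyp12a4 in guts therefore came with the choice and is no separate result.

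In heads the lysozyme genes were scarce. They took 0.00508% to 0.0596% of reads in female heads, 0.00128% to 0.0551% in WT and P58S male heads and 0.000206% to 0.0810% in the Repo driver set. The summed level of LysB, LysD and LysE followed that of the 39 digestive enzymes from library to library, with a Pearson correlation of log2 sums of 0.89 over 16 female heads, 0.89 over 24 male heads and 0.88 over the 32 libraries of the Repo driver set, and 0.83 in guts. These correlations describe libraries that share groups and depth. Gut tissue or gut RNA in head preparations was not measured apart from these enzymes, and its part in the head results was not tested.

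**Figure D3:**
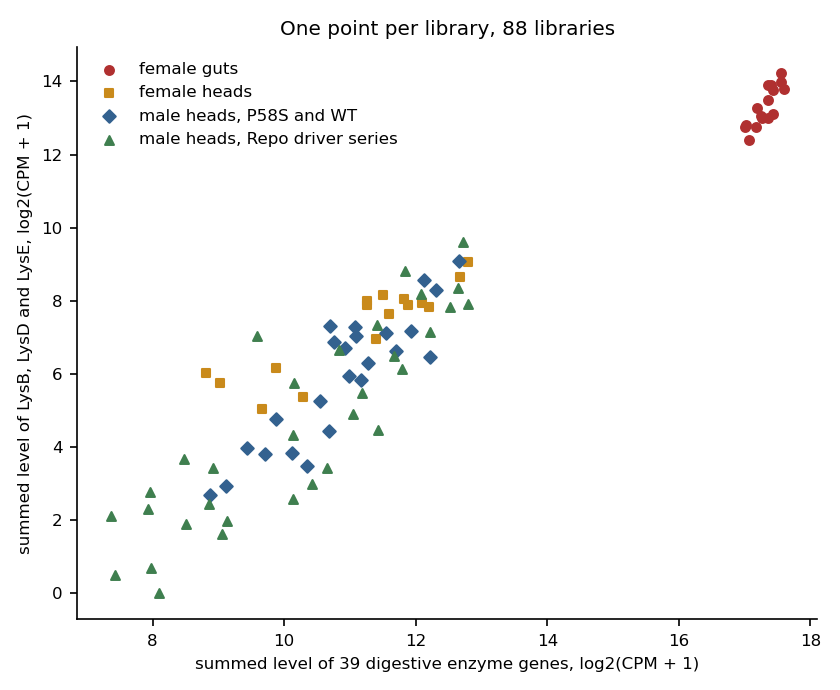
Summed LysB, LysD and LysE against the summed level of 39 digestive enzymes, both as log2(CPM + 1), 1 point for each of the 88 libraries by table. Heads spread along a rising band, with r of 0.88 to 0.89 within each head table, and the guts sit apart at its upper end, from 131064 CPM of enzymes upward.

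In male heads LysB, LysD and LysE fell with age in both genotypes. LysD stood at 175, 76.3, 117 and 252 CPM at day 5, at 64.8, 31.4, 72.3 and 90.5 CPM at day 15 and at 11.9, 10.6, 7.80 and 1.89 CPM at day 20 in P58S males. In WT males it stood at 369, 83.5, 85.5 and 47.2 CPM at day 5, at 3.57, 30.9, 36.8 and 16.1 CPM at day 15 and at 2.89, 6.13, 47.2 and 4.37 CPM at day 20. Day 20 lay wholly under day 5 in P58S males. In WT males replicate 3 of day 20 reached the lowest day 5 library.

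By edgeR's quasi-likelihood test across 9741 genes with Benjamini-Hochberg adjustment, the log2 fold change of day 20 over day 5 in P58S heads was -4.49 for LysD (SE 0.784, adjusted p = 0.000295), -3.44 for LysB (SE 0.698, adjusted p = 0.00133) and -3.70 for LysE (SE 0.599, adjusted p = 0.000135). In WT heads it was -3.17 for LysD (SE 0.709, adjusted p = 0.00404), -2.63 for LysB (SE 0.653, adjusted p = 0.00931) and -2.28 for LysE (SE 0.551, adjusted p = 0.0074). DESeq2 called the same number, 3 of 4 tested, in each genotype, and these 3 genes stayed called under all 13 alternatives. Without WT day 20 replicate 3 the fall in WT was larger, at -4.92 for LysD, -4.45 for LysB and -3.59 for LysE, and without WT day 5 replicate 1 it was smaller, at -2.21 for LysD, -2.18 for LysB and -1.63 for LysE. Among all genes 8.81% were called lower with age in P58S heads and 5.51% in WT heads. The difference between genotypes in this fall was not called for any lysozyme gene by edgeR (0 of 4, 0 at an unadjusted p under 0.05, 0 by DESeq2), where 0.205% of all genes were.

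By their median the digestive enzymes of the same heads also fell with age, more in P58S than in WT heads, and the WT sums overlapped between the ages. Of 30 tested, 16 were called lower and 1 higher with age in P58S heads, with a median log2 fold change of -2.63, and 5 lower and 1 higher in WT heads, with a median of -0.72. Their sum ran from 551.6 to 1637 CPM in P58S heads at day 20 and from 1660 to 5073 CPM at day 5, and from 465.8 to 4735 CPM in WT heads at day 20 and 2175 to 6427 CPM at day 5. The WT library with the highest enzyme sum at day 20 was replicate 3, the one with the highest LysD. Their part in the fall of the lysozyme genes was not tested.

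LysP was not called with age. Its log2 fold change with age was 0.47 in P58S heads (adjusted p = 0.629) and 0.64 in WT heads (adjusted p = 0.522). It was the lysozyme gene that differed between genotypes in male heads, at day 15, with 16.5, 3.09, 1.22 and 4.08 CPM in P58S against 37.0, 19.5, 29.3 and 8.48 CPM in WT. One P58S library, replicate 1, lay inside the WT range. The log2 fold change was -2.18 (SE 0.538, adjusted p = 0.0438 by edgeR), and 0.534% of all genes were called lower. The call was kept in 5 of 13 alternatives only. DESeq2 gave an adjusted p of 0.0933, a fit of the compared libraries alone 0.062, and leaving out WT replicate 1, 2 or 3 gave 0.183, 0.0583 and 0.128, while leaving out P58S replicate 2, 3 or 4 gave 0.189, 0.185 and 0.161. Over all alternatives the log2 fold change stayed between -3.09 and -1.78.

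LysB, LysD and LysE were not called between genotypes in male heads at any age. At day 15 LysD was higher in P58S by value, 64.8 ± 24.7 against 21.9 ± 15.0 CPM in WT (SD, n = 4 each, with replicates 1 to 4 as above; log2 fold change 1.59 and adjusted p = 0.461 by edgeR). At day 20 the P58S values were lower on average through WT replicate 3 alone, and the log2 fold changes of LysB, LysD and LysE of -0.76, -1.20 and -1.05 became 1.06, 0.54 and 0.26 without it. By edgeR 0 of 4 lysozyme genes were called at day 20 and 0 at day 5, with 0 at an unadjusted p under 0.05 and 0 by DESeq2, where 1.76% and 1.96% of all genes were called. LysS and LysX were at or near 0 in male heads, with at most 1.12 and 0.428 CPM, and were not tested.

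**Figure D4:**
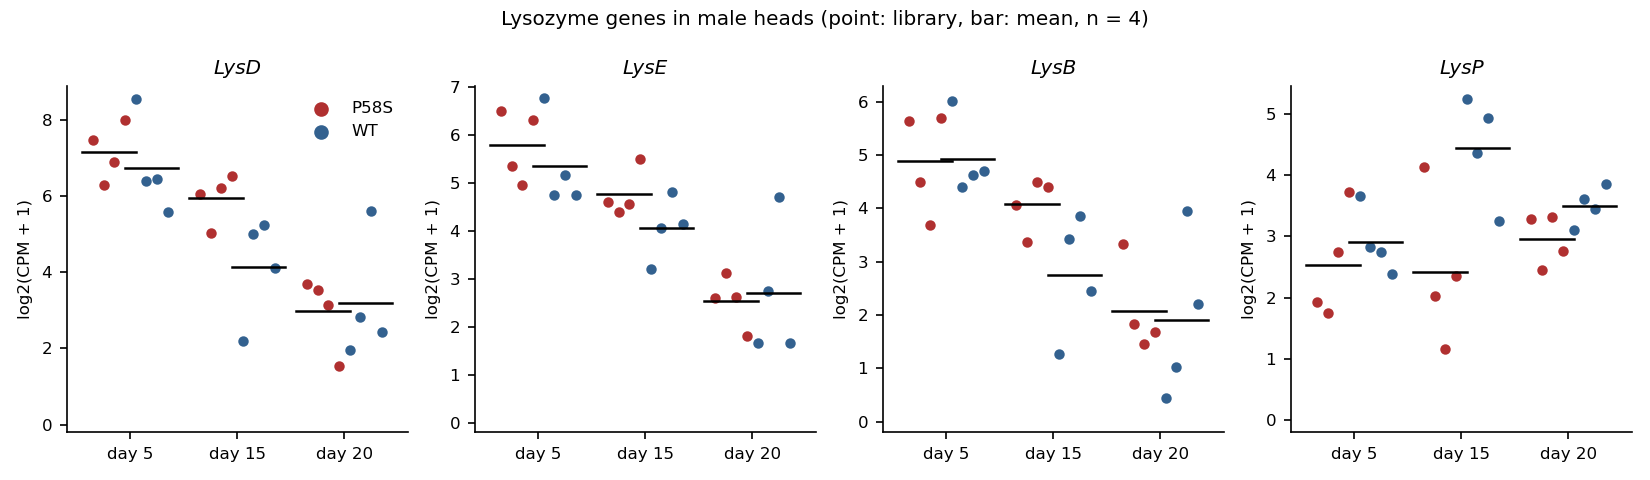
LysD, LysE, LysB and LysP in male heads as log2(CPM + 1) at days 5, 15 and 20, P58S in red to the left of WT in blue, with 1 point per library and a bar at the mean of 4. LysD, LysE and LysB step down with age in both genotypes, apart from the raised WT replicate 3 at day 20 (47.2 CPM for LysD), and the LysP groups show no such order.

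Female heads gave no call for any lysozyme gene. LysD ran from 22.9 to 158.5 CPM in P58S and from 19.6 to 317.9 CPM in WT at day 20, and from 15.6 to 151.6 CPM in P58S and from 111.3 to 224.3 CPM in WT at day 5. LysE ran from 12.0 to 78.1 CPM in P58S and from 9.50 to 158 CPM in WT at day 20, and LysB from 5.37 to 33.4 CPM in P58S and from 0 to 58.4 CPM in WT. At day 20 the groups overlap widely for all 3 genes. At day 5 LysB stood at 8.22, 18.95, 31.2 and 6.77 CPM in P58S, against 25.7, 49.8, 44.0 and 59.5 CPM in WT, and the groups crossed through 1 library of each, P58S replicate 3 and WT replicate 1. LysP had the smallest unadjusted p between genotypes, with 6.01, 12.4, 0.976 and 0.499 CPM in P58S and 30.3, 7.00, 23.8 and 51.0 CPM in WT at day 20 (log2 fold change -2.54, unadjusted p = 0.0408, adjusted p = 0.962).

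LysX in female heads had 22 reads in all, none of them in a WT library, and 16 of them in P58S day 20 replicate 3 (3.90 CPM). LysS had 100 reads over 16 libraries, at most 10.3 CPM. By limma 0 of 5 tested lysozyme genes were called in any of the comparisons, and edgeR called 0 in each. An unadjusted p under 0.05 was found for 1 gene in P58S over WT at day 20, for 1 gene with age in WT, which was LysB, and for 0 genes at day 5, with age in P58S or for the difference between the ages. The share of all genes at that unadjusted threshold is not given. Of all genes, 0.0311% were called for P58S over WT at day 20 and 0.0519% at day 5, 0.27% with age in P58S and 0.975% with age in WT, and 0.0% for the difference between the ages. These shares rest on few libraries: without WT day 5 replicate 1 the 5 genes called between genotypes at day 5 became 384 and the 94 called with age in WT became 460, and the 26 called with age in P58S became 310 with the compared libraries alone. LysB had 0, 33.2, 2.97 and 58.4 CPM in WT at day 20, against the WT day 5 values above (log2 fold change -2.21, unadjusted p = 0.0382, adjusted p = 0.299 by limma). Among the WT day 5 heads were libraries of 0.201 and 0.386 M reads, and the median log2 fold change over all genes was 0.65 for P58S over WT at day 5 and 0.35 for age in WT.

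In the Repo driver set the question was what changing kay in glia does to P58S heads. The level of kay itself in whole heads was 190 to 213 CPM in libraries labelled KayKD and 180 to 224 CPM in the Repo driver at day 5, and 213 to 306.5 CPM in KayKD and 270.5 to 296.5 CPM in the Repo driver at day 15. The groups overlap, so these whole-head levels do not show the knockdown, and the level in glia alone was not measured.

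At day 5 all 4 tested lysozyme genes were lower in libraries labelled KayKD. LysD stood at 12.2, 3.59, 7.54 and 0 CPM in KayKD, against 571, 332, 83.2 and 228 CPM in the Repo driver. LysE stood at 6.22, 3.81, 1.97 and 0 CPM in KayKD, against 132, 84.0, 44.7 and 55.8 CPM in the Repo driver. LysB stood at 0.691, 2.24, 0.179 and 0 CPM in KayKD, against 75.6, 31.9, 1.86 and 40.0 CPM in the Repo driver. LysD and LysE did not overlap between the arms, while for LysB the Repo driver replicate 3 lay inside the KayKD range. LysP stood at 2.07, 4.93, 3.77 and 3.32 CPM in KayKD, against 32.2, 19.3, 7.45 and 14.8 CPM in the Repo driver, with no overlap. These LysP values rest on 9, 22, 21 and 4 reads in KayKD, and the lowest of the Repo driver on 12 reads. In KayKD replicate 4 even a count of 0 allows 2.49 CPM.

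The log2 fold changes were -5.47 for LysD (SE 1.397, adjusted p = 0.021), -4.51 for LysE (SE 1.035, adjusted p = 0.00914), -5.34 for LysB (SE 1.45, adjusted p = 0.0315) and -2.38 for LysP (SE 0.661, adjusted p = 0.0356) by edgeR across 9796 genes, of which 1.82% were called lower. DESeq2 also called 4 of 4. LysE stayed called under all 13 alternatives, LysD under 10 of 13, LysP under 7 of 13 and LysB under 6 of 12. LysD lost its call without KayKD replicate 2, 3 or 4 (adjusted p = 0.0654, 0.0596 and 0.0534). LysB lost its call without Repo driver replicate 1 or 2 (0.053 and 0.0564) and without KayKD replicate 1, 3 or 4 (0.0919, 0.0957 and 0.0623). LysP lost it without Repo driver replicate 1 or 2 (0.0835 and 0.0749) and without any single KayKD library (0.0524 to 0.112). The direction was kept each time.

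At day 15 LysP was again lower, with 4.16, 0, 2.01 and 1.08 CPM in KayKD against 12.3, 17.7, 7.60 and 17.2 CPM in the Repo driver, and the arms did not overlap (log2 fold change -3.29, SE 0.749, adjusted p = 0.0169 by edgeR). This was 1 of 4 tested lysozyme genes, and 0.612% of all genes were called lower. The call was lost without KayKD replicate 2 (adjusted p = 0.0645) or 4 (0.0869) and kept in 11 of 13 alternatives. The KayKD values of LysP at day 15 rest on 6, 0, 6 and 11 reads. LysD had 2.08, 41.1, 2.34 and 4.12 CPM in KayKD and 221, 0, 75.7 and 120 CPM in the Repo driver at day 15, so the arms crossed through KayKD replicate 2 and Repo driver replicate 2 (log2 fold change -2.82, adjusted p = 0.347). LysE differed by -3.43 (adjusted p = 0.116) and was called without KayKD replicate 2 (-6.08, adjusted p = 0.0469).

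By their median the digestive enzymes ran the same way in these heads, while their sums overlapped between the arms at both ages. Their sum was 272 to 1602 CPM in KayKD and 770.9 to 6767 CPM in the Repo driver at day 5, and 361.9 to 1132 CPM in KayKD and 464 to 4331 CPM in the Repo driver at day 15. Their median log2 fold change was -2.33 at day 5 and -2.20 at day 15, with 0 of 31 called at day 5 and 1 called higher at day 15. The median over all genes was near 0 in both. Their part in the lysozyme differences was not tested.

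Neither overexpression arm gave a call, and both share the Repo driver libraries with KayKD. In KayWT at day 5 LysD had 0.0763, 91.9, 58.5 and 163 CPM, and at day 15 it had 12.4, 2.55, 2.36 and 1.05 CPM, against the Repo driver values above. The log2 fold changes of LysB, LysD, LysE and LysP were -1.02, -1.91, -1.92 and -1.11 at day 5 and -2.96, -4.29, -2.75 and -0.50 at day 15. LysD at day 15 had an adjusted p of 0.108 and was called without Repo driver replicate 2, the library at 0 CPM (-4.70, adjusted p = 0.0486). KayWT day 5 replicate 1 held 249.8 CPM of digestive enzymes, the lowest of its group, as it was for LysD. That is a single library, and the part of the enzymes in the lysozyme values of these arms was not tested.

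In KaySCR LysD had 6.62, 2.42, 159 and 41.1 CPM at day 5 and 2.26, 30.3, 0.405 and 15.3 CPM at day 15. Its log2 fold change was -2.59 at day 5 (adjusted p = 0.252) and -3.15 at day 15 (adjusted p = 0.395), and that of LysE -2.52 (adjusted p = 0.124) and -2.84 (adjusted p = 0.261). By edgeR 0 of 4 lysozyme genes were called in KayWT or KaySCR at either age, and 0 by DESeq2. Of all genes, 5.59% were called in KayWT at day 5 and 1.48% at day 15, and 2.6% and 0.868% in KaySCR. At an unadjusted p under 0.05 by edgeR, 1 lysozyme gene passed in KayWT at day 5 and 3 at day 15. In KaySCR 2 passed at each age. The share of all genes at that unadjusted threshold is not given, so these counts have no background to be set against. At day 5 the LysE values of both overexpression arms, up to 39.2 CPM in KayWT and 30.8 CPM in KaySCR, lay under every Repo driver library. This is a description, as LysE was called in neither arm. LysP ran from 4.61 to 26.7 CPM in KaySCR at day 5 and from 3.71 to 17.8 CPM at day 15, overlapping the Repo driver. LysX and LysS had at most 2.14 and 0.966 CPM in any library of the set.

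**Figure D5:**
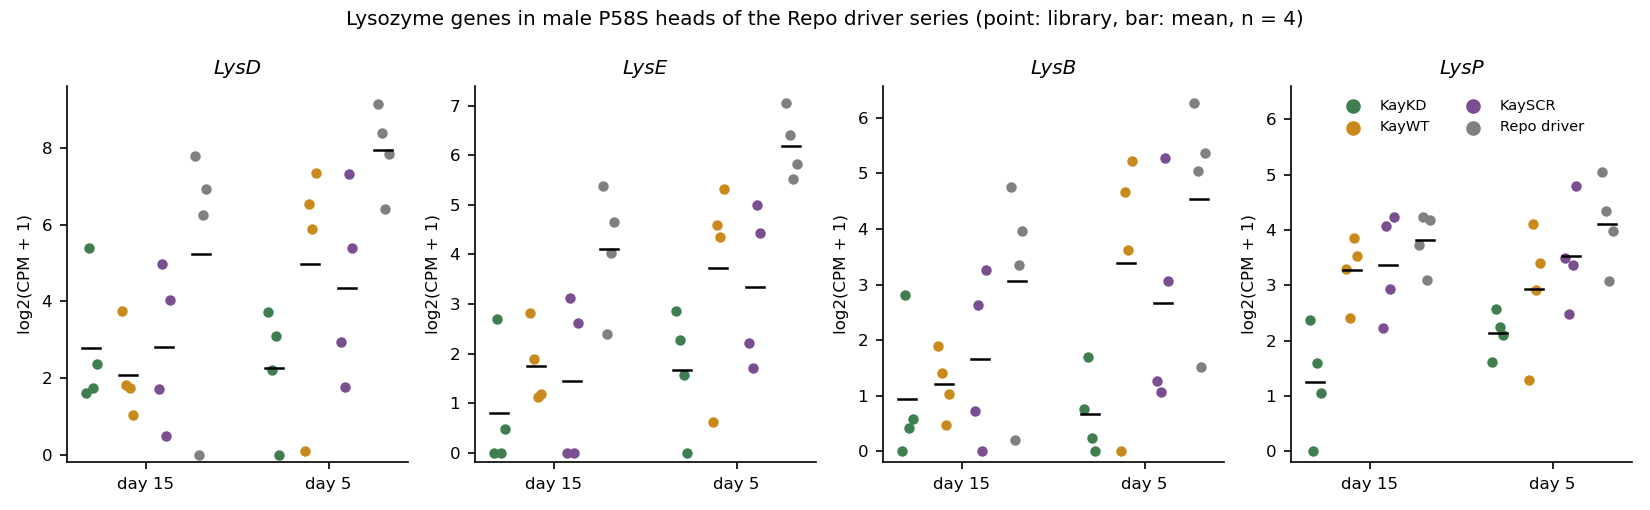
LysD, LysE, LysB and LysP in P58S male heads with Repo-Gal4, as log2(CPM + 1), for KayKD, KayWT, KaySCR and the Repo driver alone, with 1 point per library and a bar at the mean of 4. At day 5 the KayKD libraries of LysD lie at or under 12.2 CPM and the Repo driver libraries at or over 83.2 CPM, and at day 15 the LysD values of these arms cross through single libraries.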

How the data were processed

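The deposited female tables hold log2 values, per the file headers and values, on log2 CPM with a constant floor of -1.34 in guts and -0.49 in heads. CPM were taken back as 2 to the value minus 2 to the floor, and sum to 999999 per library; of values under 1000 reads, 100% came out whole (139008 in guts, 130216 in heads, tolerance 0.1 read). Plain CPM had been planned for, so the conversion was added. The deposited male table holds raw read counts per gene, and 0.170% to 0.260% of its reads lay on features that are no gene and were left out. Libraries were made with QuantSeq FWD for females and the 3′ mRNA-Seq V2 FWD kit for males, per the labels' protocols, and mapped to dm6, per the submitters' processing notes. The sources used here do not name the aligner or the counter.

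Females were tested with limma 3.58.1 (trend) on log2(CPM + 1), keeping genes with at least 1 CPM in 4 libraries (9036 in guts, 9640 in heads). Males were tested with edgeR 4.0.16 (quasi-likelihood, TMM), with 9741 genes over 24 libraries and 9796 over 32. R was 4.3.3. Calls needed a Benjamini-Hochberg adjusted p under 0.05 over all genes tested. Alternatives were other pseudocounts (0.25 and 5), no low filter, TMM or RLE scaling, edgeR on recovered reads, DESeq2 1.42.0 on counts, the compared libraries alone, a replicate block and leaving out each library. The steps were tested on simulated data. The lysozyme genes and all lists were chosen with earlier results of these data known. All 6 lysozyme genes are named, and of other lists those called in guts and, for other lysozymes, those tested; mwh and kay were added after their values or positions were seen. No 2 libraries of the same group agreed within sampling noise, and libraries of different groups were not compared in this way. Of LysS and LysX, LysX passed the filter in guts only and LysS in female heads only.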

Additional observations from a re-analysis of the deposited data

Results flagged for a closer look

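Each lysozyme gene in each group of 4 libraries was looked at as a set, which gave 86 sets with enough reads. Of these, 12 held a library whose gap to the nearest other took more of the set's range than Dixon's 95% critical value, where chance gives about 5% of sets. The same library enters once for each gene, and LysB, LysD and LysE may share reads. The 12 are therefore not separate events, and the 5% is no test of their number. In guts these were LysX in WT day 20 replicate 2 (6.15 CPM, others 1.86 to 2.22) and LysB in P58S day 5 replicate 4 (2356 CPM, others 1726 to 1790). In female heads it was LysP in P58S day 5 replicate 1 (23.8 CPM, others 0 to 2.41).

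In male heads WT day 5 replicate 1 stood high in LysB (63.7 CPM), LysD (368.6) and LysE (107.3), and WT day 20 replicate 3 in LysD (47.2) and LysE (25.0). LysE was high in P58S day 15 replicate 4 (44.3 CPM), and LysB in P58S day 20 replicate 1 (9.05). In the Repo driver set LysD stood high in KayKD day 15 replicate 2 (41.1 CPM, others 2.08 to 4.12) and in KayWT day 15 replicate 1 (12.4 CPM, others 1.05 to 2.55).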

How the results depend on the processing

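In guts 411 of 415 recomputed values for 25 lysozyme results kept direction and side of the threshold, in WT and P58S male heads 320 of 344, for LysP and LysB named in female heads 30 of 30, and in the Repo driver set 289 of 311. Most of these results were not called, and for them the side kept was that of no call. In guts only LysX, for P58S over WT at each age, was called. All 132 group levels kept their value within 1 SD under TMM scaling. Leaving out 1 library gave 0 to 1 called lysozyme genes for age in P58S guts, 0 to 1 for P58S over WT in male heads at day 15, 1 to 4 for KayKD at day 5, 0 to 1 for KayKD at day 15 and 0 to 1 for KayWT at day 15. At day 15 P58S over WT fell to 0 with DESeq2 and to 0 with the compared libraries alone. Without the low filter, KayKD at day 15 gave 2 (LysE added, adjusted p = 0.0377) and KayWT at day 15 gave 1 (LysD), and the compared libraries alone gave 1 for KayWT (LysE). Signs turned on leaving out 1 library for LysP in guts at day 5 (-0.04 to 0.62), LysE in guts at day 20 (-0.06 to 0.37), LysB (-0.23 to 0.50) and LysD (-0.22 to 1.07) in male heads at day 5, LysB (-1.32 to 1.06), LysD (-1.52 to 0.54) and LysE (-1.29 to 0.26) at day 20, and the change of the P58S effect in male heads for LysB (-1.37 to 1.01), LysD (-2.28 to 0.43) and LysP (-0.48 to 0.37), none of them called. In female heads, with no call either, they turned for P58S over WT at day 5 for LysE (-0.88 to 0.25), LysP (-1.22 to 0.57) and LysS (-0.15 to 0.95), at day 20 for LysB (-0.27 to 1.70), LysD (-1.07 to 0.27), LysE (-0.66 to 0.64) and LysS (-0.76 to 0.41), with age in WT for LysD and LysE, with age in P58S for LysB, LysD, LysE, LysP and LysS, and in the change of the P58S effect for LysE and LysS. The cause was not tested.

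In no comparison did all 4 same-numbered pairs of replicates deviate together, with correlations of -0.26 to 0.26. The libraries were therefore not treated as paired, though 4 pairs per comparison cannot exclude a shared origin. A replicate block gave 1 called lysozyme gene in guts at both ages for P58S over WT and 3 in place of 4 for KayKD at day 5 (LysB, adjusted p = 0.0501), and changed no other call.

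Counts over all genes moved by more than 1.5 times in guts and in heads. In guts P58S over WT at day 5 called 12 genes (5 without the low filter, 21 with edgeR, 24 with the compared libraries alone, 5 to 10 without 1 library) and at day 20 33 (18 without the filter, 7 with the compared libraries alone). Age called 19 in WT (6 without the filter, 7 to 49 without 1 library) and 27 in P58S (13 and 54 with pseudocounts 0.25 and 5, 6 without the filter, 16 with TMM, 41 with the replicate block, 4 to 52 without 1 library). In female heads P58S over WT called 5 at day 5 (18 with edgeR, 0 with the replicate block, 0 to 384 without 1 library) and 3 at day 20 (19 with the compared libraries alone, 14 with edgeR), and age called 94 in WT (26 with the compared libraries alone, 56 to 460 without 1 library) and 26 in P58S (310 with the compared libraries alone, 8 to 19 without 1 library). In male heads P58S over WT called 191 at day 5 (40 with the compared libraries alone, 314 with DESeq2, 91 to 365 without 1 library), 99 at day 15 (154 with the compared libraries alone, 149 with DESeq2) and 171 at day 20 (287 with the compared libraries alone, 259 with DESeq2, 107 to 147 without 1 library), and age in P58S called 1558 (814 with the compared libraries alone). At day 5 KayKD called 351 (72 with the compared libraries alone, 172 to 629 without 1 library), KayWT 548 (93, and 253 to 1092) and KaySCR 255 (33, and 96 to 690), each highest without Repo driver day 5 replicate 1. At day 15 KayKD called 122 (242 with DESeq2, 59 to 132 without 1 library), KayWT 145 (76 to 122 without 1 library) and KaySCR 85 (186 with the compared libraries alone, 141 with DESeq2, 54 to 87 without 1 library). Depth limits LysS and, in heads, LysX.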

Other observations

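Cyp12a4, whose gut pattern was the closest to that of LysX, also differed by value in male heads, where LysX was near 0. At day 5 it had 16.5, 8.80, 9.49 and 15.0 CPM in P58S heads, against 4.85, 4.01, 6.84 and 6.67 CPM in WT heads. At day 15 it had 20.4, 16.9, 10.6 and 13.0 CPM in P58S heads, against 3.42, 5.52, 6.80 and 3.63 CPM in WT heads. At day 20 it had 21.4, 13.4, 22.3 and 20.8 CPM in P58S heads, against 4.69, 6.00, 7.00 and 7.66 CPM in WT heads, and the genotypes overlapped at none of the 3 ages. It was singled out after its values were seen, and no test is given.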
